A study of Rattus norvegicus with 18 samples.

Results

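Gadd45a, Gadd45b, Gadd45g and Cdkn1a were followed in cultured rat hippocampal neurons after a ligand-controlled form of the transcription factor MEF2 was switched on. Members were all probe sets that the array's annotation assigned to 1 of these 4 symbols. These are 4 of the 14217 genes named on the array, and they had 5 of the 31042 probe sets tested, 1 for each Gadd45 gene and 2 for Cdkn1a, and all 5 were kept because no filter on low values was used. The 4 genes were chosen by name with results of these arrays already known, and which values guided that choice is not recorded. Every difference of theirs between groups is therefore given as a description, with no p-value, and a count of members called supports nothing further.

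Neurons in dissociated culture were transduced with lentivirus on day 3. On day 10 they were given 4OHT (4-hydroxytamoxifen), which activates fusions to the estrogen receptor's ligand-binding domain (ER). The virus carried either MEF2-VP16-ER, in which MEF2 is joined to the VP16 activation domain and ER, or the control MEF2deltaDBD-VP16-ER, which lacks the DNA-binding domain. Each construct was sampled at 0, 1 and 2.5 h of 4OHT, which gives 6 groups of 3 biological replicates and 18 Affymetrix arrays. Every group, the controls included, carried virus and a VP16-ER fusion, and no source used here names the promoter that drove it. Neuronal markers were bright, with Map2 at a mean intensity of 12878 and Snap25 at 9206. Astrocyte markers were bright too (Slc1a3 10821, Gfap 8529, the latter between 3962 and 13336 on single arrays), so that the RNA was not of neurons alone. Array medians lay between 190 and 197, and the number of arrays limits the precision.

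GADD45 proteins are small acidic proteins first known from cells that stop dividing or repair DNA. They bind PCNA, cyclin-dependent kinase complexes and the kinase MAP3K4, which lies upstream of p38 and JNK, and they have been linked to the active removal of DNA methylation. In mouse hippocampus Gadd45b is known as a gene that neuronal activity induces. Gadd45a and Cdkn1a are textbook targets of p53, and Cdkn1a encodes p21, an inhibitor of cyclin-dependent kinases. MEF2 factors bind an A/T-rich element.

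The sequences directly upstream of the 3 Gadd45 paralogs are given to show which letters the 3 starts share. Each line is the 250 bases before the start annotated by RefSeq in the rat build GRCr8, 5′ to 3′ on the gene's strand. Capitals mark the motifs named below.
Gadd45b, chr7:9430719-9430968, minus strand: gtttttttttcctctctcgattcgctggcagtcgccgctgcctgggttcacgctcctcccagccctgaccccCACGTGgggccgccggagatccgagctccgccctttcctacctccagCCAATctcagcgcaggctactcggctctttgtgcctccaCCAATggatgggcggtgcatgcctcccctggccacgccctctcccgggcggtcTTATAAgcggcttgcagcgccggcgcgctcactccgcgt
Gadd45g, chr17:13530352-13530601, minus strand: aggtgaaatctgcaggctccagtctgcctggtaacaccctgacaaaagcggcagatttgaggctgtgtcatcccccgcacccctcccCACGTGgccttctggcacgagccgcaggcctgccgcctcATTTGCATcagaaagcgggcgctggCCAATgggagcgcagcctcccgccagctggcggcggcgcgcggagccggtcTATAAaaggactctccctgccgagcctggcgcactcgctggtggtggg
Gadd45a, chr4:97486800-97487049, minus strand: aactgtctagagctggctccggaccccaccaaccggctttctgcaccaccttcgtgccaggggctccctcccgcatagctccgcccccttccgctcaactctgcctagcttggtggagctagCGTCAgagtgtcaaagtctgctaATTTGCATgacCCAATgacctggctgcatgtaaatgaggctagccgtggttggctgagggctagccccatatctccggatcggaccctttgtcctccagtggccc

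Both strands were searched for 9 motifs in these windows and in the same 250 bases of 33469 annotated promoters. No match to the MEF2 consensus, to the SRF CArG box, to the full CRE (TGACGTCA) or to the AP-1 site (TGANTCA) lay in the window of any of the 4 genes. Of all promoters, 2.96% held the first, 1.5% the second, 1.59% the third and 6.34% the AP-1 letters. The E-box CACGTG lay 178 to 173 bases before the start of Gadd45b and 163 to 158 bases before that of Gadd45g, and 5.59% of promoters held it. The octamer ATTTGCAT was present upstream of Gadd45a and Gadd45g and not of Gadd45b, against 1.56% of promoters. CCAAT occurred 2 times before Gadd45b and 1 time each before Gadd45a and Gadd45g (34% of promoters), and TATAA before Gadd45b, Gadd45g and Cdkn1a (24%). In Gadd45b the TATAA matches on the 2 strands overlap. The CRE half-site TGACG, which also lies within the full CRE, was found on the opposite strand before Gadd45a and Cdkn1a (18.2%). A match is a string of letters and not a bound site, and the absence of one speaks only of these 250 bases.

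**Figure D1:**
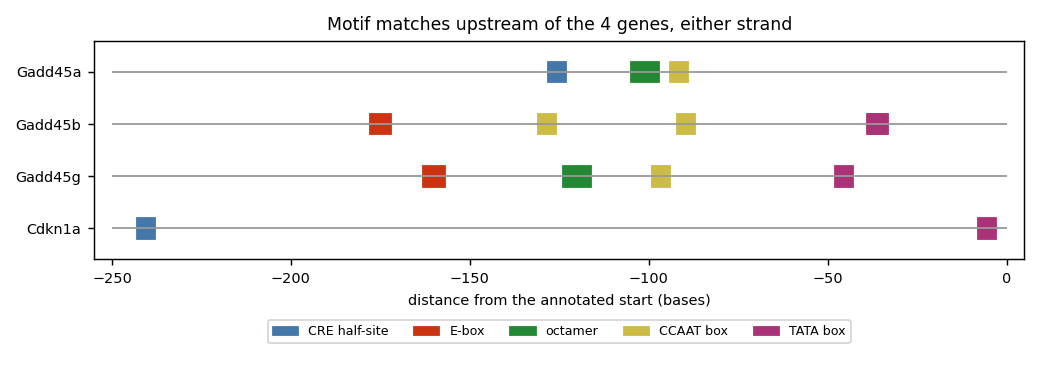
Motif matches on either strand in the 250 bases before the annotated start (x axis, distance in bases) of the 4 genes. Gadd45b and Gadd45g both carry the E-box and CCAAT and TATAA matches, and no MEF2 match appears on any of the 4 lines.

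Gadd45b was the member that differed most between groups. Before the ligand its intensity with MEF2-VP16-ER was 177, 162 and 143 in replicates 1, 2 and 3, and with the control construct 168, 147 and 153. These groups overlapped, at a log2 difference of 0.04 ± 0.16 (SE, 3 arrays in each group). Log2 values are differences of log2(intensity + 16), which understates the change of dim genes.

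After 2.5 h of 4OHT the MEF2-VP16-ER arrays read 309, 301 and 347 for Gadd45b. All 3 lay above every 0 h array, and only 1 of the other 15 arrays, MEF2-VP16-ER at 1 h in replicate 1 (304), reached into their range. The mean went from 161 ± 16.9 (SD, n = 3) to 319 ± 24.4, a log2 difference of 0.92 ± 0.16 and a fold of 1.89 on that scale. Limma called this difference, 1 of the 5 member probe sets, at an adjusted p under 0.05 over all probe sets, where 0.789% of all probe sets were called. With replicate number as a block it was called as well, among 2.33% of all probe sets. For groups that do not overlap and are higher at 2.5 h the count of members was also 1, against 5.76% of all probe sets. In such bulk RNA, a change in the number of cells of a type and a change in RNA per cell cannot be told apart.

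The control construct gave smaller values. Gadd45b read 215, 147 and 202 at 2.5 h in control neurons, so replicates 1 and 3 were above all 0 h control arrays and replicate 2 was at the level of its own 0 h array. The log2 difference was 0.23 ± 0.16, 0.13 without replicate 1 of these arrays and 0.38 without replicate 2. The induction, which is the change in MEF2-VP16-ER neurons minus the change in control neurons, was 0.69 ± 0.23 (95% interval 0.20 to 1.18). With the replicate block the SE was 0.17 and the interval 0.33 to 1.05. The induction was not called in either fit: 0 of 5 member probe sets were, against 0.177% of all probe sets, and with the replicate block again 0, against 0.937%. When the constructs were compared at 2.5 h alone, a setting added after the data were seen, the difference was 0.73 ± 0.16 and was called (1.28% of all probe sets). The 3 MEF2-VP16-ER arrays (301 to 347) then lay above the 3 control arrays (147 to 215), as in 6.54% of all probe sets. At 0 h, where Gadd45b overlapped, 8.06% of all probe sets were higher with MEF2-VP16-ER without overlap.

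**Figure D2:**
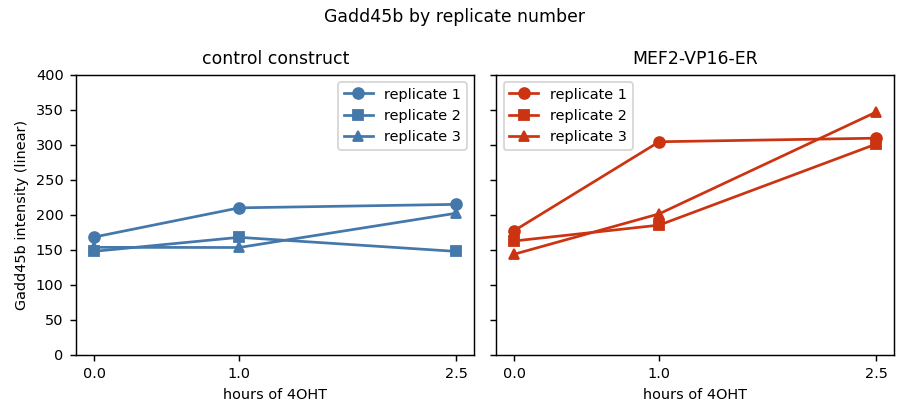
Gadd45b intensity (y axis, linear) against hours of 4OHT (x axis), 1 line for each replicate number, control construct left and MEF2-VP16-ER right. All 3 MEF2-VP16-ER lines end between 301 and 347, while the control lines end between 147 and 215.

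At 1 h Gadd45b was intermediate and varied between replicates. The MEF2-VP16-ER arrays read 304, 185 and 201, and the control arrays 210, 167 and 153. Replicate 1 was already close to its 2.5 h value of 309, while replicates 2 and 3 were nearer to 0 h. All 3 MEF2-VP16-ER arrays were above those at 0 h (4.4% of all probe sets were higher without overlap in this comparison). Their log2 difference from 0 h was 0.45 ± 0.16. That of the control arrays was 0.15 ± 0.16, which leaves an induction of 0.30 ± 0.23. These values rested on replicate 1 at 1 h: without that MEF2-VP16-ER array the change was 0.24 and the induction 0.090, and without that control array the control change was 0.034. None of these was called. Limma called 0 of 5 members and 0.0354% of all probe sets in MEF2-VP16-ER neurons at 1 h, and 0 of 5 and 0.00322% for the induction at 1 h. In the order of its group means Gadd45b ran from control at 0 h (156 ± 10.5) through MEF2-VP16-ER at 0 h (161), control at 1 h (177 ± 29.4), control at 2.5 h (188 ± 35.7) and MEF2-VP16-ER at 1 h (230 ± 64.6) to MEF2-VP16-ER at 2.5 h. Each neighbouring pair in that order overlapped.

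Within each replicate number the ratio of the 2.5 h to the 0 h intensity of Gadd45b was 1.75, 1.85 and 2.42 with MEF2-VP16-ER. It was 1.28, 0.999 and 1.32 with the control construct. The lowest ratio with MEF2-VP16-ER was above the highest with the control, as in 7.15% of all probe sets. The call of the change in MEF2-VP16-ER neurons was lost without replicate 2 or replicate 3 of the 0 h arrays, or without replicate 3 of the 2.5 h arrays (log2 differences 0.93, 0.85 and 0.86). It was also lost without all arrays of replicate 2 (0.97) or of replicate 3 (0.79), and kept without replicate 1 or any of the other 3 arrays. The estimate stayed between 0.79 and 1.01 in these fits.

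Alongside the Gadd45b result, the summed intensity of oligodendrocyte markers (4 of 5 measured) was lower with MEF2-VP16-ER at 2.5 h. It was 963 to 1018, below the 1098 to 1248 at 0 h and the 1116 to 1274 in control neurons at 2.5 h. The inductions at 2.5 h were -0.44 for Olig2, -0.32 for Sox10, -0.23 for Mbp and 0.15 for Mog. Mbp was the brightest of the 4 at a mean of 606, and the dimmest, Mog, was between 61.3 and 93.1. No marker of any list was called for the induction at 2.5 h, and the part of these markers in the result was not tested. Neuronal markers (7 of 7) summed to 36269 to 36841 with MEF2-VP16-ER at 2.5 h, a range that overlapped the 36662 to 38612 at 0 h and lay above the 34043 to 35250 of control neurons at 2.5 h. The constructs were already apart at 0 h, where control neurons had 33876 to 35526. Astrocyte markers (6 of 6) overlapped, at 34389 to 45045 against 34929 to 49040 at 0 h, as did microglia markers (5 of 5, 700 to 730 against 691 to 753) and markers of dividing cells (6 of 6, 1361 to 4352 against 1326 to 2520). Fibroblast markers (5 of 5) were at 658 to 937 against 651 to 999, with control neurons at 881 to 1199 at 2.5 h. The ratio of 3′ to 5′ probe sets for GAPDH, a sign of RNA quality, was also higher with MEF2-VP16-ER at 2.5 h than at 0 h. It was 1.08 to 1.14 at 2.5 h and 1.02 to 1.07 at 0 h, with no overlap. In control neurons it was 1.08 to 1.11 at 2.5 h and 1.07 to 1.11 at 0 h. With MEF2-VP16-ER at 1 h it spanned 1.07 to 1.28, with the highest value of any group. For beta-actin with MEF2-VP16-ER the ratio overlapped, at 2.22 to 2.51 at 2.5 h against 1.88 to 2.35 at 0 h. The part of RNA quality in the result was not tested.

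Gadd45a, the family member best known as a p53 target, went the other way in MEF2-VP16-ER neurons. It read 375, 342 and 425 at 0 h, 280, 370 and 294 at 1 h, and 334, 305 and 277 at 2.5 h. The 2.5 h arrays lay below all 0 h arrays, a pattern that no other member showed and that 5.53% of all probe sets had. The log2 difference was -0.30 ± 0.15 (95% interval -0.62 to 0.02), and in the fit with the replicate block the interval was -0.60 to -0.006. The difference was not called in either fit. Without the block 0 of the 5 members were called as lower, where 88 of all 31042 probe sets were. Control neurons read 401, 382 and 250 at 0 h, 355, 335 and 318 at 1 h, and 370, 291 and 331 at 2.5 h. The control array at 0 h in replicate 3 (250) was the lowest of all 18. The induction at 2.5 h was -0.27 ± 0.21 (95% interval -0.72 to 0.19). It was -0.06 without that array, 0.083 without all arrays of replicate 3, and -0.51 without those of replicate 2.

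Gadd45g, the third paralog, had groups that did not overlap only between 0 h and 1 h in control neurons. Its control arrays read 203, 204 and 172 at 0 h, 244, 223 and 273 at 1 h, and 216, 157 and 246 at 2.5 h. The 1 h arrays were above all 0 h arrays, as in 2.62% of all probe sets for this comparison, and the log2 difference was 0.33 ± 0.14. With MEF2-VP16-ER the arrays read 228, 211 and 203 at 0 h, 239, 186 and 193 at 1 h, and 226, 177 and 203 at 2.5 h, and all 3 times overlapped. The induction was -0.39 ± 0.19 at 1 h (95% interval -0.80 to 0.03) and -0.15 ± 0.19 at 2.5 h (-0.57 to 0.26), neither of them called. At 2.5 h it moved to -0.023 without replicate 3 of the 2.5 h control arrays, -0.33 without replicate 2 of them, and 0.010 without all arrays of replicate 3. Without all arrays of replicate 3 the induction at 1 h was -0.24 and the control change at 1 h 0.18. In control neurons limma called 0 of 5 members and 0% of all probe sets at 1 h and likewise 0 of 5 and 0% at 2.5 h. At unadjusted p under 0.05 it had 840 and 667 probe sets, and the induction at 2.5 h had 1485. Each of these counts is below a share of 0.05 of the 31042 tested.

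Cdkn1a was measured by 2 probe sets, and neither separated the groups. The brighter one, 1388674_at, read 658, 788 and 650 with MEF2-VP16-ER at 0 h, 843, 708 and 613 at 1 h, and 696, 822 and 715 at 2.5 h. In control neurons it read 709, 685 and 638 at 0 h, 712, 799 and 617 at 1 h, and 709, 718 and 623 at 2.5 h. All 6 groups overlapped, and the induction was 0.08 ± 0.17 at 2.5 h (95% interval -0.27 to 0.43) and -0.02 ± 0.17 at 1 h. The other, 1387391_at, lay between 45.7 and 70.5 on all 18 arrays, at the 13.1 to 25.9 percentile of its array, so it was dim. Its induction at 2.5 h was -0.04 ± 0.14 (95% interval -0.35 to 0.27). Before the ligand none of the 5 member probe sets was called between constructs (0% of all probe sets, with 2736 at unadjusted p under 0.05), and their differences lay between 0.04 and 0.16.

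**Figure D3:**
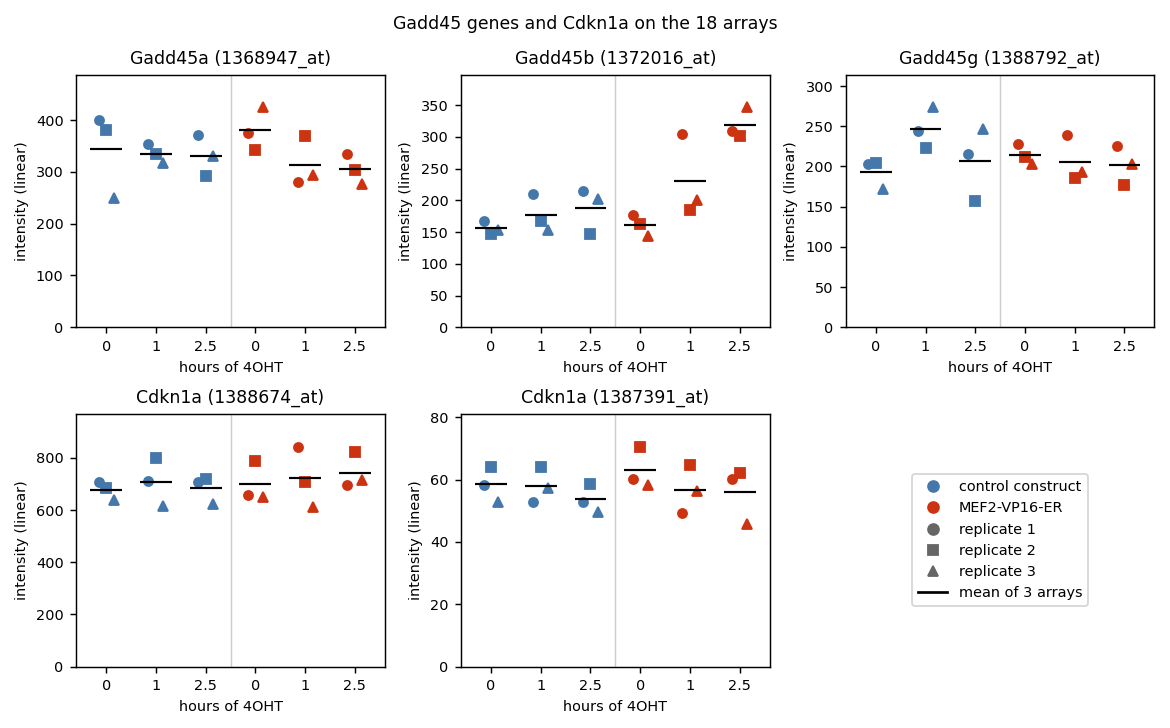
Intensity (y axis, linear, from 0) of each member probe set on the 18 arrays by hours of 4OHT (x axis), control construct in blue and MEF2-VP16-ER in red, with symbols for replicate numbers and a bar at the mean of 3 arrays. Only the Gadd45b panel has a group, MEF2-VP16-ER at 2.5 h, that lies above all control arrays.

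**Figure D4:**
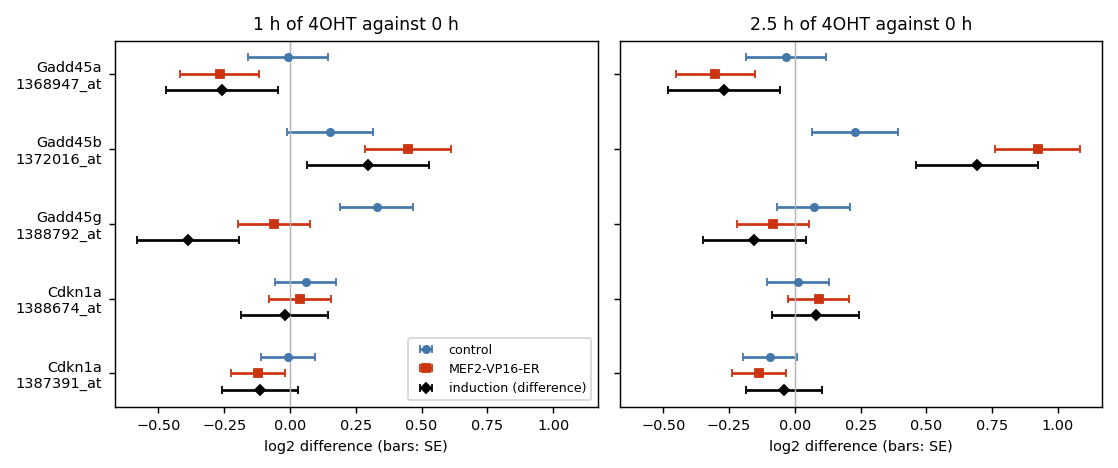
Log2 differences (x axis, bars SE) from 0 h at 1 h (left) and 2.5 h (right) for each member probe set, in control neurons, in MEF2-VP16-ER neurons, and their difference, the induction. At 2.5 h Gadd45b stands at 0.92 with MEF2-VP16-ER and 0.23 with the control, and the other 4 inductions lie between -0.27 and 0.08.

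The genes around these members were looked up in 7 lists written from general knowledge, but with earlier results of these data known. A call of a listed gene is therefore not independent of that choice. The lists held 102 genes, of which 91 were measured. Of these 91, limma called 0 for the induction at 2.5 h (4 with the replicate block) and 0 at 1 h. In MEF2-VP16-ER neurons alone 1 rose and 0 fell at 2.5 h (4 and 3 with the block), and at 1 h 1 rose, Klf6. The median induction of the 91 at 2.5 h was -0.03, and that of all probe sets 0.00.

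Among 19 measured p53 target genes none was called for the induction at 2.5 h, with 7 positive and a median of -0.03. Ccng1, which encodes cyclin G1, was at 0.02 ± 0.15 and Ei24 at 0.05 ± 0.15. The gene that rose in MEF2-VP16-ER neurons at 2.5 h was from this list: Sesn1, which encodes sestrin 1, a restrainer of mTORC1 signalling, singled out after its values were seen. Its intensity was 453, 447 and 445 at 0 h and 591, 589 and 646 at 2.5 h, a log2 difference of 0.43 ± 0.09 (limma adjusted p = 0.0419, 0.0132 with the replicate block). In control neurons Sesn1 went from 382, 458 and 372 to 514, 520 and 523, a log2 difference of 0.35 ± 0.09 (adjusted p = 1.00). Its induction was 0.07 ± 0.13, and the call in MEF2-VP16-ER neurons was lost without any 1 of the 6 arrays (adjusted p = 0.0842 to 0.213).

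No gene was called for the induction at 2.5 h, with the block or without, among 7 CDK inhibitors related to Cdkn1a (median induction -0.08), 9 MAP kinases and MAP kinase kinases downstream of GADD45 (-0.09) and 10 enzymes and partners of DNA methylation and demethylation (-0.10). Cdkn1b, which encodes p27, was at -0.08 ± 0.14 and Cdkn2d, which encodes p19, at -0.20 ± 0.20. The JNK gene Mapk8 was at 0.03 ± 0.10 and the p38 gene Mapk14 at -0.27 ± 0.14. Tdg, the thymine glycosylase that acts in active demethylation, was at -0.08 ± 0.20, and Ing1, a chromatin reader linked to GADD45 proteins, at -0.37 ± 0.16.

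The 12 cyclins, CDKs and PCNA that p21 or GADD45 bind also held no call for the induction, at a median of 0.05. Pcna was at 0.06 ± 0.26 and Cdk4 at 0.04 ± 0.26. The cyclin D1 gene Ccnd1, singled out after its values were seen, fell by 0.49 ± 0.11 on the log2 scale in MEF2-VP16-ER neurons at 2.5 h in the fit with the replicate block (adjusted p = 0.0227; 0.562 without it). In control neurons its difference was -0.26, not called in either fit.

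The integrated stress response, which several agents share with the Gadd45 genes, had few positive values: 2 of 14 genes were positive at 2.5 h, with a median of -0.16. Before the ligand 13 of the 14 were higher with MEF2-VP16-ER than with the control construct (median 0.14, 0 called), and the induction is measured from those 0 h arrays. Ddit4, an inhibitor of mTORC1 that stress and glucocorticoids induce, went from 2722, 3171 and 3810 at 0 h to 1727, 1891 and 1914 at 2.5 h with MEF2-VP16-ER. Control neurons went from 2679, 2577 and 3802 to 3281, 2674 and 3882. The induction was -0.92 ± 0.34 without the block (adjusted p = 0.754) and was called with it (adjusted p = 0.0331). Atf4, the factor at the centre of this response, was at -0.13 ± 0.22. Atf3, a factor of the same response that was singled out after its values were seen, went from 921, 358 and 468 to 1745, 1210 and 952 with MEF2-VP16-ER, called with the block (1.21 ± 0.26, adjusted p = 0.0175) and not without it (adjusted p = 0.925). Its 0 h arrays spanned 358 to 921, and its induction was not called (0.94 ± 0.91, adjusted p = 1.00, and 0.417 with the block).

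Of 21 measured regulators known to act on Gadd45 genes or Cdkn1a, 14 were positive at 2.5 h (median 0.13). Klf6, a zinc finger factor that can activate Cdkn1a, went with MEF2-VP16-ER from 1536, 1655 and 1570 at 0 h to 3296, 3153 and 2859 at 1 h and 2642, 2371 and 2076 at 2.5 h. All 3 arrays at 1 h were above those at 2.5 h, and both groups were above 0 h. It rose by 0.96 ± 0.13 at 1 h in MEF2-VP16-ER neurons (adjusted p = 0.00779). That call was lost without replicate 1 or 3 of the 0 h arrays or replicate 1 of the 1 h arrays (adjusted p = 0.0682 to 0.0720), and without all arrays of replicate 1 or 2 (0.994 and 1.00). In control neurons Klf6 went from 1491, 1474 and 1321 at 0 h to 1238, 1243 and 952 at 2.5 h. Its induction at 2.5 h, 0.89 ± 0.18, combines this change with one of 0.56 in MEF2-VP16-ER neurons. The induction was called with the block (adjusted p = 0.00105) and not without it (adjusted p = 0.0860). Its 3 probe sets lay between 0.86 and 0.89, and the dimmest of them was not called with the block (adjusted p = 0.164).

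Foxo1, a forkhead factor that can activate Gadd45a and Cdkn1a, went from 644, 604 and 586 to 971, 836 and 804 with MEF2-VP16-ER, while control neurons went from 628, 697 and 652 to 579, 571 and 458. The induction was 0.79 ± 0.16 (adjusted p = 0.0119 with the block, 0.0744 without). Its other 2 probe sets, both dim, were at 0.13 and 0.06. Egr1, an activity-regulated zinc finger factor, was at -0.80 with an SE of 0.17 in the fit with the block (adjusted p = 0.0389) and 0.83 without it (adjusted p = 1.00), and its replicates spanned 1474 to 3456 within the 0 h MEF2-VP16-ER group. In the fit without the block it was -0.26 without replicate 3 of the 0 h control arrays and -0.35 without replicate 3 of the 2.5 h MEF2-VP16-ER arrays. It was -0.43 without replicate 1 of the 2.5 h control arrays and -0.48 without replicate 1 of the 0 h MEF2-VP16-ER arrays. With the block 2 of the 21 rose and 1 fell.

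**Figure D5:**
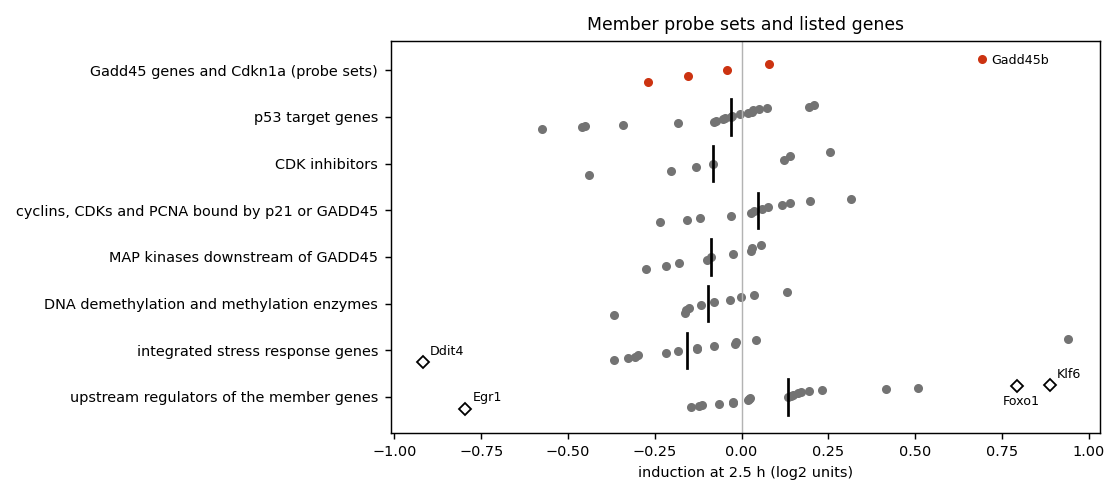
Induction at 2.5 h (x axis, log2 units) of the 5 member probe sets and of each listed gene, by list. Vertical bars are list medians and open diamonds are genes called with the replicate block: Klf6 and Foxo1 to the right, Ddit4 and Egr1 to the left.

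The genes whose values ran most like those of each member were found by Pearson's r over the 18 arrays, among 12111 named probe sets above the median level. Closest to Gadd45b were Jarid2 (r = 0.92), a partner of Polycomb repressive complex 2, Rnf122 (0.91), a RING finger gene, and Sertad2 (0.90). The induction at 2.5 h was 0.94 for Rnf122, 0.28 for Jarid2 and 0.17 for Sertad2, and limma called only that of Rnf122. These genes were picked for likeness to Gadd45b on the same arrays, so that call supports nothing further. Closest to Gadd45a were Bfar (0.82), Mro (0.78) and Ampd2 (0.75), to Gadd45g Gart (0.88), Tap1 (0.85) and Slf2 (0.80), and to the brighter Cdkn1a probe set Ncdn (0.90), Podxl2 (0.88) and Ift140 (0.87). None of these 9 was called for the induction at 2.5 h. The 18 values behind each r share arrays, groups and replicate numbers, and r here is a description only.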

How the data were processed

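The authors deposited 1 intensity per probe set and array on a linear scale, for 18 arrays hybridised with biotin-labelled cRNA, per the labels. The summarisation and normalization are not given in the sources used here, and array quartiles lay close together. Values were used as deposited, as log2(intensity + 16). Of 31099 probe sets 57 Affymetrix controls were left out. Probe sets with 1 symbol numbered 20826, with several 436 and with none 9780.

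All 18 arrays entered 1 limma model with a mean per group (eBayes, 12 residual degrees of freedom), with Benjamini-Hochberg adjustment over all 31042 probe sets in each comparison. A listed gene was represented by its brightest probe set and is said to have risen or fallen only at an adjusted p under 0.05. Up to 4 genes a list called for an induction are named, filled up to 2 by mean level; others are marked. Members and lists were chosen with earlier results of these data known. Promoter sequences are from RefSeq (GRCr8), which held all 4 genes.

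Residuals of arrays with the same replicate number were correlated above 0.1 in all 18 pairs of the groups compared at 2.5 h (0.21 to 0.75), which pairs those. At 1 h 1 of 18 pairs was lower (0.068), so comparisons with MEF2-VP16-ER neurons at 1 h are read from the fit without the block. The fit with the block held all 18 arrays. The MEF2-VP16-ER arrays at 1 h therefore also entered its SEs and calls at 2.5 h. Alternatives were another scaling, pseudocount, filter, variance model or set of groups, the block, and arrays left out. Steps were tested on simulated data. The fits used limma 3.58.1 under R 4.3.3, and figures were drawn with matplotlib 3.10.9 in Python 3.11.15.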

Additional observations from a re-analysis of the deposited data

Results flagged for a closer look

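The change at 2.5 h differed between the constructs, in the fit with the replicate block, for 4 listed genes: Ddit4 (induction -0.92), Egr1 (-0.80), Klf6 (0.89) and Foxo1 (0.79), none of which was called without the block. For Mapk14 (-0.27) and Ing1 (-0.37) every replicate number went down with MEF2-VP16-ER and up with the control construct at 2.5 h, and limma did not call this difference in either fit (adjusted p = 1.00 and 0.988 without the block, 0.241 and 0.187 with it). In replicate 3 Mapk14 with MEF2-VP16-ER went only from 928 to 927. The share of all probe sets with opposite directions in every replicate number was not counted. No member probe set showed either pattern. Groups of 3 arrays are too small to single out an array that stands apart.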

How the results depend on the processing

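Gadd45b kept its call in MEF2-VP16-ER neurons at 2.5 h under all 8 alternatives that used every array of that comparison (log2 differences 0.77 to 0.98), and its induction stayed positive in all 24 alternatives (0.54 to 0.83). With the replicate block the probe sets called numbered 291 for the induction at 2.5 h, 9 at 1 h, 724 and 58 in MEF2-VP16-ER neurons at 2.5 and 1 h, 1 in control neurons at 2.5 h and 1 between constructs at 0 h, and the listed genes called 4, 1, 7 and 2 in the first 4 of these. The block changed no member's call. Results at 1 h with MEF2-VP16-ER are otherwise given without the block, although each of the 18 arrays was closest to one of its own number. Fits of only the groups compared called 32, 0, 75 and 4 probe sets, with 0 listed genes in MEF2-VP16-ER neurons at 2.5 h, and eBayes with trend and robust also gave 0 there. Only probe sets above the median level gave 2. The same time point alone, added after the data were seen, called 397 probe sets, 1 member and 2 listed genes at 2.5 h, and 19 and 1 at 1 h. For the induction at 1 h, quantile normalization called 3 probe sets, and median centring, the filter, and trend and robust 2 each.

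With arrays or a replicate number left out, counts ran from 5 to 64 (induction, 2.5 h), 0 to 2 (1 h), 52 to 225 and 1 to 15 (MEF2-VP16-ER, 2.5 and 1 h) and 0 to 1 (control, 2.5 h). In MEF2-VP16-ER neurons members called ran from 0 to 1 and listed genes from 0 to 2 at 2.5 h, and listed genes from 0 to 1 at 1 h. Log2 differences of Gadd45a ran from -0.51 to 0.083 (induction, 2.5 h), -0.53 to 0.029 (1 h), -0.24 to 0.14 and -0.21 to 0.11 (control, 2.5 and 1 h) and -0.12 to 0.32 (0 h). Those of Cdkn1a 1388674_at ran from -0.20 to 0.15 (induction, 1 h) and -0.12 to 0.15 (MEF2-VP16-ER, 1 h), and those of Gadd45g from -0.13 to 0.28 (control, 2.5 h). The cause was not tested. None of these member values was called.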
